A study of Xenopus laevis with 4 samples.

Results

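Hox genes encode homeodomain transcription factors that assign position along the head to tail axis of the embryo. In vertebrates they lie in the hoxa, hoxb, hoxc and hoxd clusters, and their order along the chromosome follows the order in which they are used, with low-numbered genes acting early and toward the head and high-numbered genes acting late and toward the tail. Members with the same number in different clusters are called paralogues. Hox clusters are a textbook example of Polycomb-regulated sequence, rich in unmethylated CpG islands. Xenopus laevis carries an L and an S subgenome, so that most genes exist as a pair of homeologs marked .L and .S.

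Protein-coding genes with a symbol of hoxa, hoxb, hoxc or hoxd followed by a number were taken from a RefSeq gene table of the v10.1 assembly. The rule found 56 Hox genes of 34461 protein-coding genes on the 18 chromosomes, 28 on L chromosomes and 28 on S chromosomes, in 8 clusters. The hoxa clusters held 8 genes on L and 8 on S, the hoxb clusters 5 on L and 7 on S, the hoxc clusters 7 on L and 7 on S, and the hoxd clusters 8 on L and 6 on S. In all 8 clusters the gene number increased with the coordinate. The gene with the symbol hoxa11.S lay on chromosome 6L in the table and was counted by its chromosome, within hoxa L. The hoxc8 homeolog on 2L is listed as xhoxc8, does not match the rule and was kept out of the counts.

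The data are MBD-seq of wild type (WT) whole embryos at the 256-cell stage, 4.5 h post-fertilization (hpf), before zygotic genome activation (ZGA), with 250 embryos pooled per replicate. Genomic DNA with methylated CpG was captured with an H6-GST-MBD fusion protein, which yielded 2 MBD capture libraries, and 2 libraries of Input DNA served as the background of the authors' peak calling. All samples share genotype, stage and tissue, so there is no treated group, and the comparisons below are between Hox sequence and the rest of the genome within each library. Whole embryos hold all cells together, and a peak does not tell in which of them the DNA was methylated.

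Replicate 2 was deeper than replicate 1 (23909019 against 17645240 tags) and had more peaks (222771 against 131303) and more of its tags in peaks (42.3% against 22.2%). Peaks covered 2.98% of the chromosomes in replicate 1 and 5.48% in replicate 2. Of the replicate 1 peaks 61.8%, and of the replicate 2 peaks 36.2%, overlapped a peak of the other list, so values are given for each library. With 1 group of 2 libraries no p-value was computed, since an exact test over 2 libraries cannot go below p = 0.5. The labels do not say whether the replicates came from separate clutches. Genes and clusters are neighbours on the same chromosomes and were not treated as replicates.

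A peak means that captured tags met all thresholds of the authors' calling, among them at least 4-fold more tags than Input, and sequence without a peak missed at least 1 of them. It was not measured to be unmethylated, since capture also depends on the number of CpGs and on whether reads can be placed. Tags per gene, CpG content and mappability were not analysed here, and their part in the results was not tested.

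Hox gene bodies were almost free of peaks. No Hox gene had a base in a peak in replicate 1, whereas 50% of all protein-coding genes did. In replicate 2 the count was 1 of 56 Hox genes, against 62.8% of all genes. No Hox gene had a peak in both libraries, against 45.6% of all genes, and 1 had a peak in either library, against 67.2%. Hox genes are short, with a median length of 3777.5 bp against 17192 bp for all protein-coding genes, and a short gene is less likely to contain a peak. The share of bases counts sequence rather than genes, and it was not compared with genes of like length either. Peaks covered 0% of Hox gene sequence in replicate 1 and 0.166% in replicate 2, against 2.58% and 4.79% of the sequence of all protein-coding genes. The gene models of hoxa3, hoxd3 and hoxd4 are long, up to 47524 bp for hoxa3.S, and all but hoxd3.S overlap neighbouring Hox genes.

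The sole Hox gene with a peak was hoxb9.L (9_10L, 3572512 to 3577306), a posterior Hox gene of paralogue group 9 used as a marker of spinal cord in Xenopus. The peak was called in replicate 2 at 3576633 to 3577259 and is 627 bp wide, at the high-coordinate end of the gene. Replicate 1 had no peak there, and its nearest peak was 29859 bp away, so the peak has no replicate support. Its homeolog hoxb9.S (9_10S, 3246424 to 3249592) had no peak, with the nearest at 17349 bp in replicate 1 and 17361 bp in replicate 2.

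Gene ends gave the same counts as gene bodies. The table gives no strand, so the end with the transcription start site is not known and both ends were extended by 1 kb in either direction. A peak in these windows was found at 1 of 56 Hox genes in either library (hoxb9.L), against 36.2% of all protein-coding genes, and at 0 of 56 in both libraries, against 12.2%.

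Hox genes were also far from peaks. The median distance from a Hox gene to the nearest peak was 37995.5 bp in replicate 1 and 25296.5 bp in replicate 2. The median for all protein-coding genes was 0 in each library, since at least every second gene contained a peak. The lower quartile of the Hox genes, 15677.5 bp in replicate 1 and 9821.25 bp in replicate 2, was above the upper quartile of all genes, at 7690 bp and 2452 bp. More than 20 kb from a peak in both libraries were 30 of 56 Hox genes (53.6%), against 1.49% of all protein-coding genes. The distance of 20 kb was set after the values had been seen. A gene that contains a peak has a distance of 0, so distance also depends on gene length, and genes were not matched for length.

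**Figure D1:**
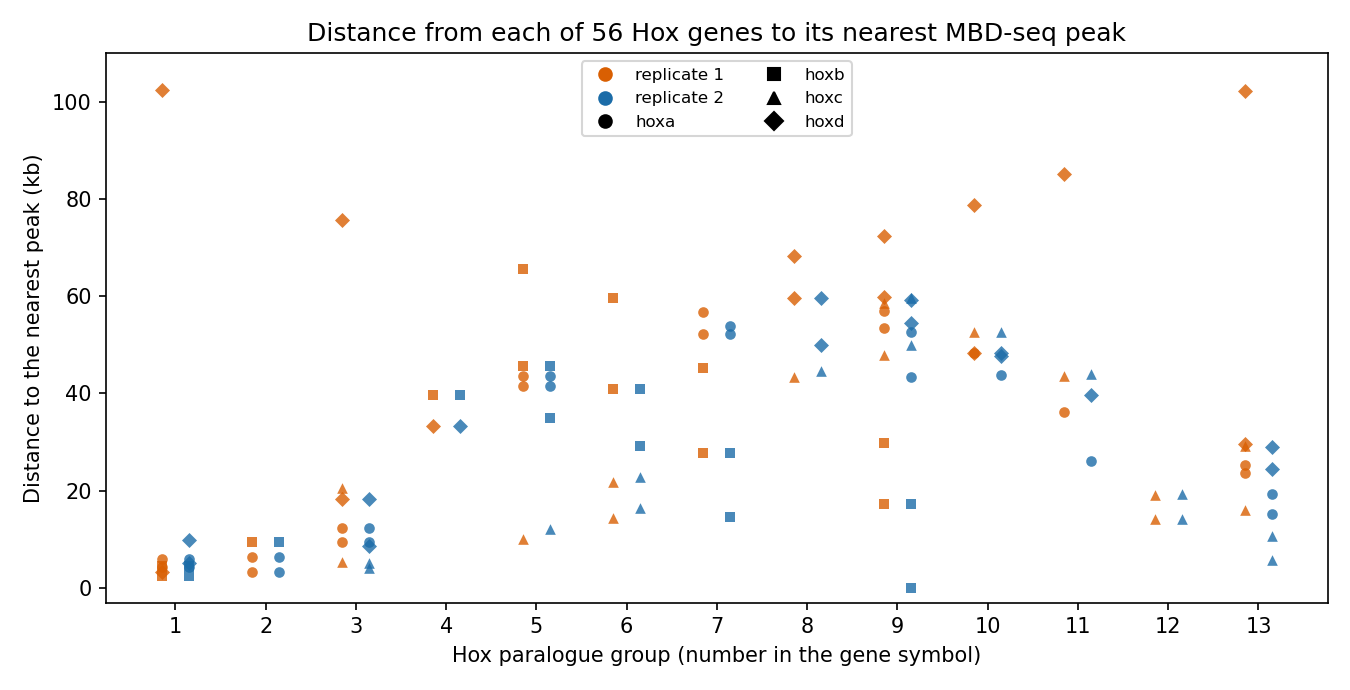
Distance in kb from each of the 56 Hox genes to its nearest peak, by the number in the gene symbol, in replicate 1 (orange) and replicate 2 (blue), with a marker shape for each cluster name. Distances were short for group 1, apart from hoxd1.S in replicate 1, and mostly longer for groups 5 to 11, and the single point at 0 is hoxb9.L in replicate 2.

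Distance varied with position in the cluster. The 17 genes of paralogue groups 1 to 4, which pattern the hindbrain, had a median distance of 9406 bp in replicate 1 and 6349 bp in replicate 2. These short medians came from groups 1, 2 and 3, with medians from 4419 to 15348 bp in replicate 1 and from 4798 to 9071 bp in replicate 2. The 2 genes of group 4 had medians of 36486.5 bp and 36500 bp. For the 16 genes of groups 5 to 8, which act in the trunk, the medians were 44358 bp and 41248 bp. The 23 genes of groups 9 to 13, which act in the posterior body and, in hoxa and hoxd, in the limb, had medians of 47850 bp and 39587 bp. Among them, groups 9, 10 and 11 had medians from 43592 to 55178.5 bp in replicate 1 and from 39587 to 51222 bp in replicate 2. Medians were lower for group 12 (16622.5 bp and 16794 bp) and group 13 (27254 bp and 17282 bp). Genes in the middle of a long sequence without peaks are far from a peak by geometry, and genes of 1 cluster share the peaks from which distances were measured.

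The lowest-numbered gene of a cluster lay within 10 kb of a peak in 6 of 8 clusters in replicate 1 and in 8 of 8 in replicate 2. This is not particular to these genes. The upper quartile of the distance over all protein-coding genes was 7690 bp and 2452 bp, so most genes lay within 10 kb of a peak. In hoxb and hoxd this is a group 1 gene, which acts in the hindbrain. Distances for hoxb1.L (9_10L, 3472089 to 3476888) were 2389 bp in replicate 1 and 2376 bp in replicate 2, and for hoxb1.S (9_10S, 3159455 to 3162552) 4477 bp and 4443 bp. For hoxd1.L (9_10L, 78458678 to 78461439) they were 3302 bp and 5153 bp. The libraries thus differed by less than 2 kb at each of these genes, but at hoxd1.L the distances are to different peaks. There the nearest peak of replicate 1 overlapped no peak of replicate 2, whereas a replicate 1 peak at 5057 bp did.

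The libraries differed widely at hoxd1.S (9_10S, 68818412 to 68821437), with 102418 bp in replicate 1 and 9923 bp in replicate 2. The lowest-numbered genes of hoxc belong to group 3. The nearest peak of hoxc3.L (2L, 154043173 to 154051266) lay at 5256 bp in replicate 1 and 5226 bp in replicate 2, and that of hoxc3.S (2S, 137590343 to 137594692) at 20545 bp and 4023 bp. Thus near hoxd1.S and hoxc3.S a peak within 10 kb was called in replicate 2 alone.

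The highest-numbered genes, which in hoxa and hoxd pattern the distal limb and the tail end of the body, were farther from a peak than the lowest-numbered gene of their cluster in 6 of 8 clusters in replicate 1 and in 7 of 8 in replicate 2. Distances were 25343 bp in replicate 1 and 15231 bp in replicate 2 for hoxa13.L (6L, 43473136 to 43476273), and 23716 bp and 19333 bp for hoxa13.S (6S, 34705884 to 34708121). For hoxc13.L (2L, 154345418 to 154349875), a gene with a role in hair and nail in mammals, they were 29165 bp and 10776 bp, and for hoxc13.S (2S, 137890167 to 137894234) 16110 bp and 5725 bp. At each of these genes replicate 2 had the closer peak. For hoxd13.L (9_10L, 78570397 to 78574316) distances were 102146 bp and 24453 bp, and for hoxd13.S (9_10S, 68925668 to 68927920) 29569 bp and 28896 bp.

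The genes farthest from a peak, by the mean over both libraries, lay inside the clusters. In hoxa these were hoxa7.L (56787 bp in replicate 1 and 53791 bp in replicate 2), a trunk Hox gene, and hoxa9.S (56928 bp and 52545 bp), a posterior gene also known from blood stem cells in mammals. In hoxb they were hoxb5.L (65579 bp and 35046 bp) and hoxb5.S (45643 bp and 45655 bp), members of group 5. In hoxc they were hoxc10.L (52681 bp and 52654 bp) and hoxc9.S (58612 bp and 59694 bp). In hoxd they were hoxd10.L (78764 bp and 48387 bp) and hoxd9.S (59833 bp and 59160 bp). These hoxc and hoxd genes are all genes of the posterior trunk. By replicate 1 alone, however, the farthest genes of hoxd were outer ones, hoxd13.L (102146 bp) and hoxd1.S (102418 bp). In hoxa S the closest gene was hoxa2.S (6S, 34615652 to 34617593), a gene of the second pharyngeal arch, with 3327 bp in replicate 1 and 3349 bp in replicate 2.

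Next, each cluster was taken as a whole from the start of its first to the end of its last Hox gene and compared with its flanks, 50 kb on each side. Taken over all clusters, the share of bases in peaks was 1.05% for replicate 1 and 1.53% for replicate 2 (1.29% ± 0.342, SD, n = 2), against 2.78% and 4.45% of the flanks (3.61% ± 1.18). The difference, clusters minus flanks, was -1.74 percentage points in replicate 1 and -2.92 in replicate 2 (-2.33 ± 0.834, SD, n = 2). This SD is the spread between 2 libraries with unlike numbers of peaks, and the difference was not tested against it. Clusters held 0.376 times the share of their flanks in replicate 1 and 0.344 times in replicate 2. The flanks were nearer to the chromosome level, at 0.934 times the chromosome share in replicate 1 and 0.811 times in replicate 2.

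**Figure D2:**
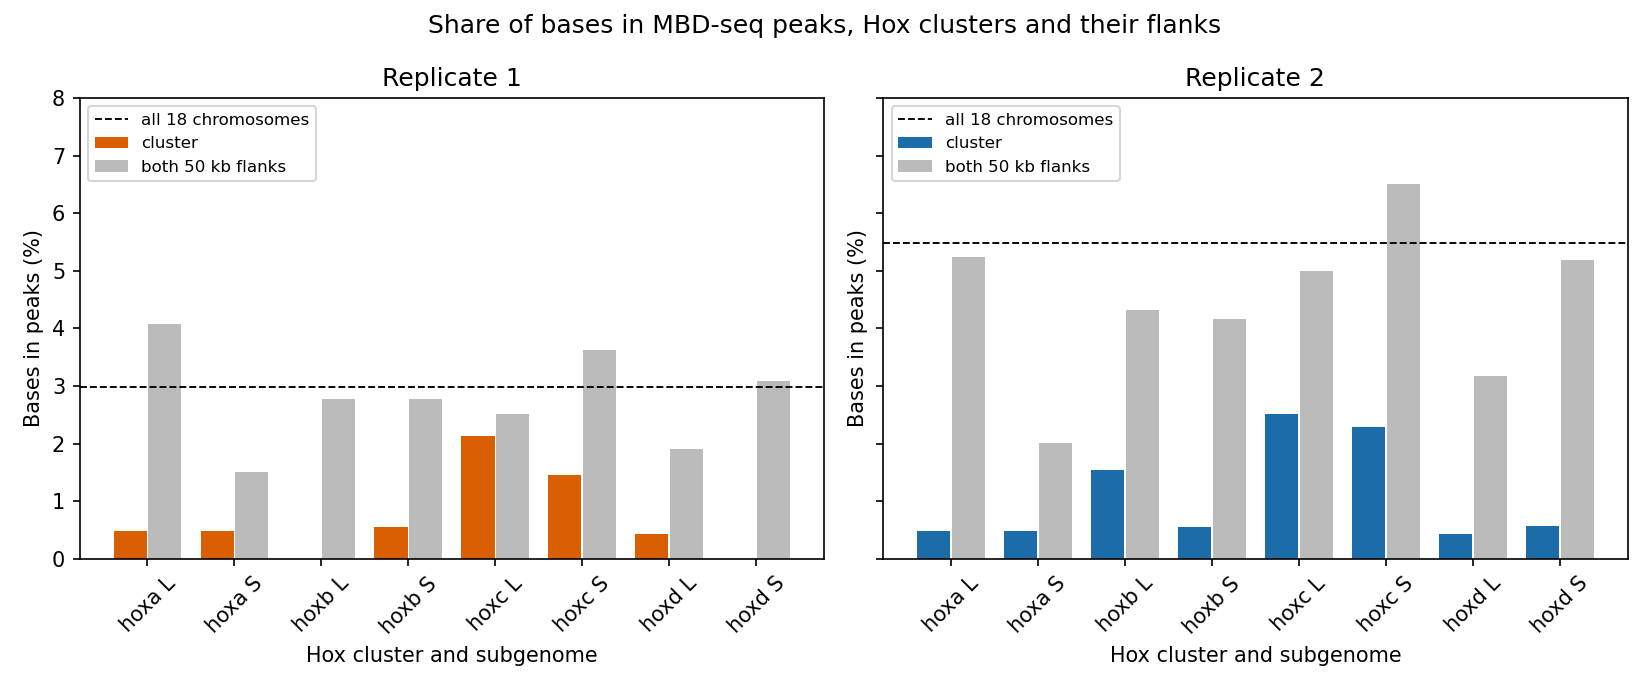
Percent of bases in peaks in each of 8 Hox clusters (coloured bars) and in both 50 kb flanks together (grey bars), for replicate 1 (left) and replicate 2 (right), with the share over all 18 chromosomes as a dashed line. In each library the cluster bar is below the flank bar in 8 of 8 clusters, with the tallest cluster bars in hoxc.

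With flanks of 50 kb the direction was the same everywhere. In 8 of 8 clusters the share was below that of the flanks in both libraries, and below that of the chromosomes, whereas flank pairs were below the chromosomes in 5 of 8 cases in replicate 1 and 7 of 8 in replicate 2. The size differed among clusters. At hoxa L (6L, 43371136 to 43476273) 0.477% of bases were in peaks in each library, against 4.08% and 5.23% of its flanks. At hoxa S (6S, 34603676 to 34708121) the share was 0.480% in each library, against 1.503% and 2.004%. The hoxa S flanks were the lowest of all flank pairs in both libraries, so that this cluster differed least from its flanks after hoxc L in replicate 1 and least of all in replicate 2.

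At hoxb L (9_10L, 3472089 to 3577306) the cluster held no peak in replicate 1 and 1.55% of bases in replicate 2, against 2.77% and 4.31% of its flanks. The homeologous hoxb S (9_10S, 3159455 to 3249592) had 0.556% in each library, against 2.77% and 4.17%. At hoxd L (9_10L, 78458678 to 78574316) the share was 0.433% in each library, against 1.91% and 3.17%. The hoxd S cluster (9_10S, 68818412 to 68927920) had no peak in replicate 1 and 0.576% in replicate 2, against 3.08% and 5.18%. Each of these cluster values comes from 3 peaks or fewer.

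The hoxc clusters, which are the longest by the extent between their outer genes, had the highest shares. At hoxc L (2L, 154043173 to 154349875, 306.703 kb) the share was 2.14% in replicate 1 and 2.52% in replicate 2, against 2.51% and 4.999% of its flanks. The difference in replicate 1 was -0.368 percentage points, the smallest of all clusters. At hoxc S (2S, 137590343 to 137894234, 303.892 kb) it was 1.45% and 2.29%, against 3.63% and 6.50%. Both hoxc clusters together held 16 of 20 cluster peaks in replicate 1 and 25 of 33 in replicate 2. Over the 6 other clusters 0.318% of bases were in peaks in replicate 1 and 0.677% in replicate 2, against 2.69% and 4.01% of their flanks.

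Clusters were also placed among equal windows along the chromosomes, by the mean share of both libraries. For the 6 clusters of hoxa, hoxb and hoxd, between 0.307% and 1.32% of 27402 windows of 100 kb had a share at or below that of the cluster. For hoxc, set against 9129 windows of 300 kb, this was 6.80% for hoxc L and 2.50% for hoxc S. The windows include the clusters, and their positions are a description and not a test.

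Of the peaks inside clusters, 12 were shared between the libraries, which is 60% of the 20 in replicate 1 and 36.4% of the 33 in replicate 2. Sharing was thus close to that of all peaks (61.8% and 36.2%). In the flanks 25 peaks were shared, 69.4% of 36 in replicate 1 and 43.9% of 57 in replicate 2.

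The 6 clusters other than hoxc held 4 peaks in replicate 1 and 8 in replicate 2, too few to show how peaks are spread within a cluster. A cluster with few peaks has long stretches without a peak by that count alone. The map of the clusters shows long stretches with no peak in either library, and the longest of these was taken in each cluster. It measured 113 kb in hoxa L, 115 kb in hoxa S, 77.0 kb in hoxb L, 99.4 kb in hoxb S, 117 kb in hoxc L, 135 kb in hoxc S, 131 kb in hoxd L and 121 kb in hoxd S. Over all chromosomes the median length between neighbouring peaks was 5.84 kb and the longest was 432 kb. Of such runs 0.166% (453 of 272431) reached 75 kb, and together they made up 1.58% of the length of the chromosomes. The longest run reached 75 kb in 8 of 8 clusters. In all, 112 runs reached 100 kb, among them the longest of 6 clusters. Most runs are short, and the run of each cluster was picked for its length, so the share by number overstates how rare they are. Among 27402 windows of 100 kb, 0.0912% had no base in a peak of either library.

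**Figure D3:**
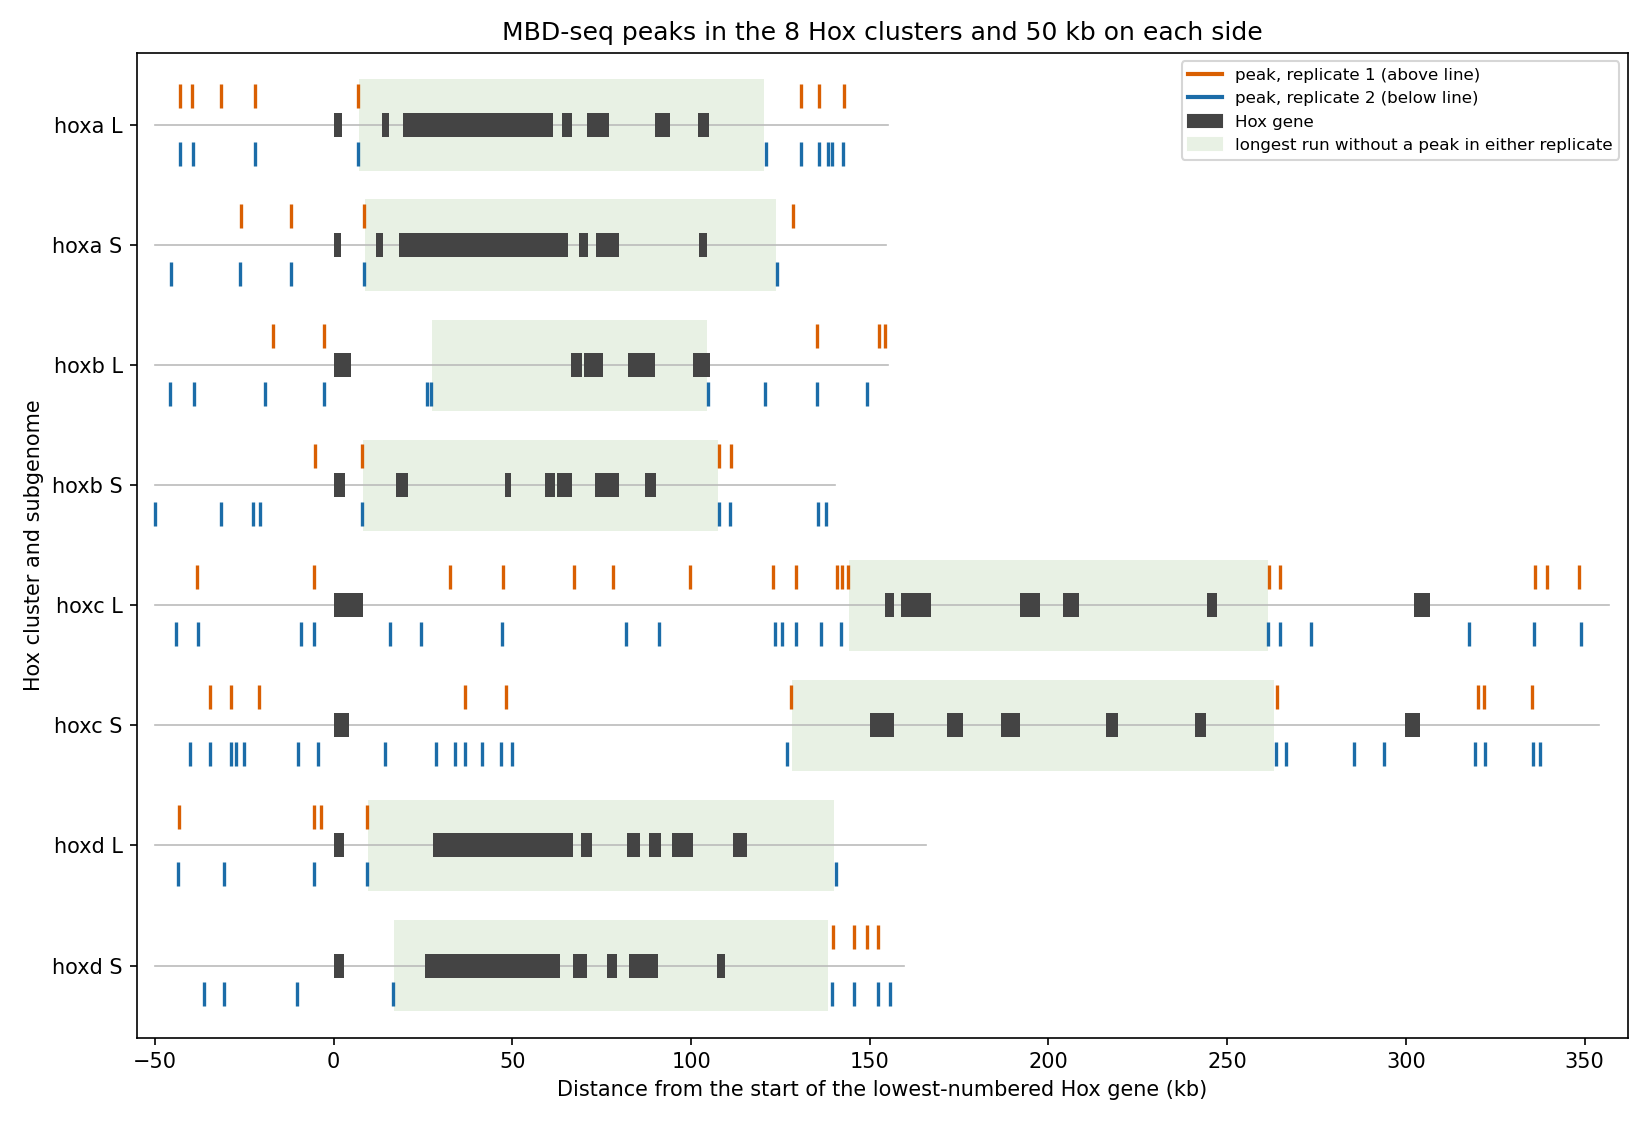
Map of the 8 Hox clusters with their 50 kb flanks, by distance in kb from the start of the first Hox gene, with Hox genes as boxes to scale, peaks of replicate 1 (orange, above) and replicate 2 (blue, below) as ticks of fixed width, and the longest run without a peak in either library shaded. Peaks lie in the flanks, after the first gene and, in hoxc, also before the last, whereas the shaded middle of each cluster has none, and in hoxb L the shading ends at the replicate 2 peak in hoxb9.L.

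**Figure D4:**
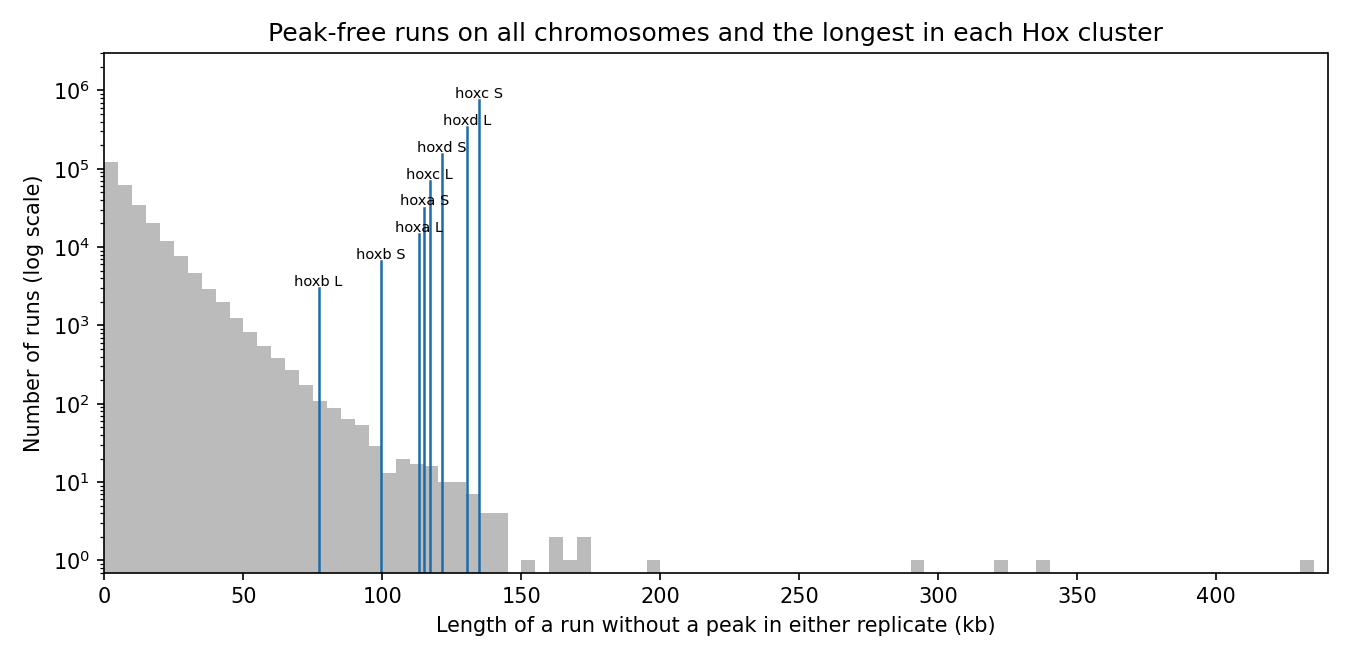
Number of runs without a peak in either library (log scale) by length in kb, over all chromosomes (grey), with lines at the longest run of each Hox cluster, from 77.0 kb in hoxb L to 135 kb in hoxc S. The heights of the lines only separate their labels, and the grey bars reach to the longest run at 432 kb.

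These runs contained most Hox genes. In all, 45 of 56 Hox genes lay wholly inside the run of their cluster, and thus inside a run of 75 kb or more (80.4%), against 1.53% of all protein-coding genes. The threshold of 75 kb was set after the runs had been seen. A short gene fits inside a run more easily, and genes were not matched for length. In hoxa L and hoxa S the run spanned hoxa2 to hoxa13, in hoxd L and hoxd S hoxd3 to hoxd13, and in hoxb S hoxb2.S to hoxb9.S. The run in hoxb L spanned hoxb5.L to hoxb7.L and was ended by the replicate 2 peak in hoxb9.L. In hoxc the runs covered hoxc5.L to hoxc12.L and hoxc6.S to hoxc12.S. Outside were the lowest-numbered gene of each cluster, the group 13 genes of hoxc, and hoxb9.L.

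The ends of the runs differed by side. In hoxa, hoxd and hoxb S the run went past the last Hox gene, by 15.2 kb in hoxa L, 19.3 kb in hoxa S, 17.3 kb in hoxb S, 24.5 kb in hoxd L and 28.9 kb in hoxd S. On the low-number side it ended between the first and the next Hox gene in 8 of 8 clusters. With replicate 1 alone, which had fewer peaks, the run of hoxd L measured 239 kb. That of hoxd S measured 241 kb with all 6 genes inside, and that of hoxb L 137 kb with all 5 genes inside. In hoxd S and hoxb L the end between the first and the next Hox gene thus rests on replicate 2 peaks alone. Runs of 75 kb or more were also more frequent with replicate 1 alone, with 4215 on the chromosomes.

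The sequence between neighbouring Hox genes was divided into 44 spacers, and these were grouped into the first and the last of each cluster and all others. This division was chosen after the peaks had been seen, and it uses the Hox genes of the rule only. Other genes lie within some spacers, such as xhoxc8 between hoxc6.L and hoxc9.L and LOC494794 between hoxb1.L and hoxb5.L, and unnamed gene models there may include further Hox genes. The 28 inner spacers, 254.464 kb in sum, had no peak in either library. The first spacers had a peak in 6 of 8 clusters in replicate 1 and in 8 of 8 in replicate 2. They held 2.31% and 3.26% of bases in peaks, against 2.98% and 5.48% of the chromosomes. Most of their peaks were in hoxc, 13 of 17 in replicate 1 and 18 of 25 in replicate 2. The first spacers of the 6 other clusters held 1.38% and 2.51%. The 8 first spacers are longer on average, 436.638 kb in sum, and a short spacer is less likely to contain a peak. Spacers were not matched for length, and no share for sequence of like length was computed. Of the 8 last spacers, 2 had a peak in each library, both of them in hoxc.

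**Figure D5:**
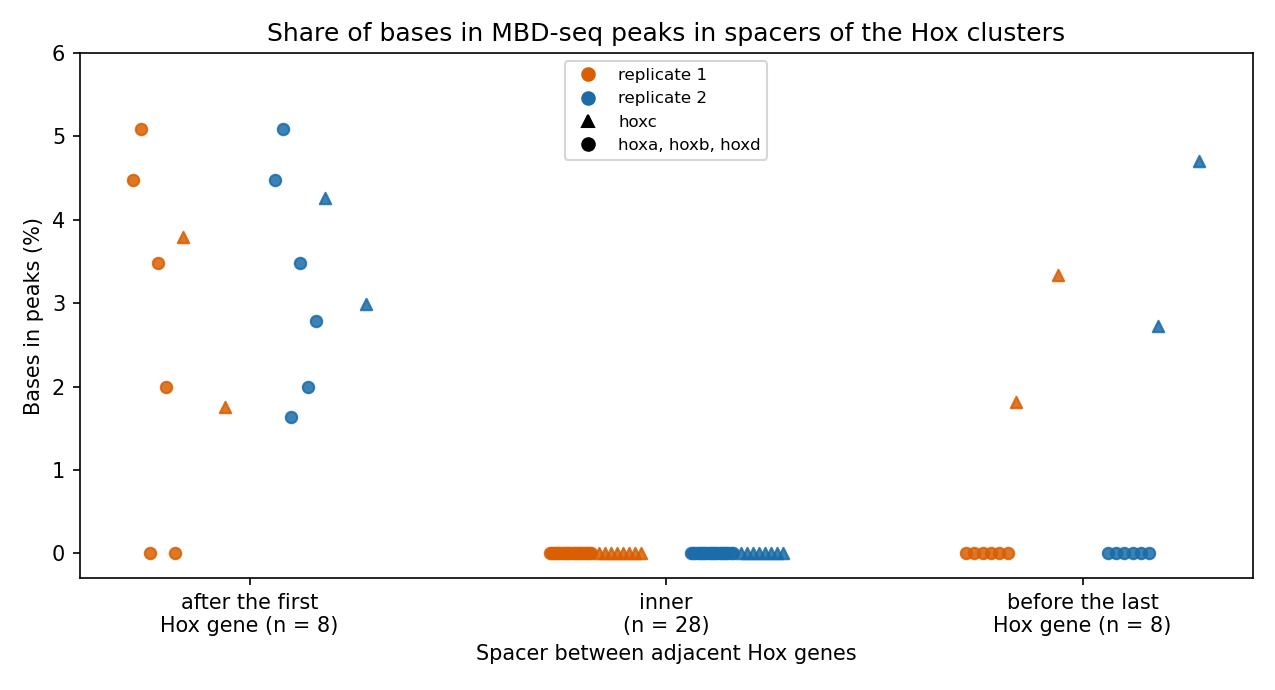
Percent of bases in peaks in each of 44 spacers between neighbouring Hox genes, by place in the cluster, in replicate 1 (orange) and replicate 2 (blue), with hoxc as triangles and the other clusters as circles. All 28 inner spacers are at 0 in both libraries, and the 2 last spacers above 0 are those of hoxc.

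In several clusters the peak of the first spacer was found at nearly the same place in both libraries. Behind hoxb1.S it began 4477 bp after the gene in replicate 1 and 4443 bp in replicate 2, and behind hoxd1.L 6310 bp and 6317 bp. Each was the only peak of its cluster in that library. In hoxd S and hoxb L the first spacer had peaks in replicate 2 alone, at 13357 bp after hoxd1.S and at 21072 bp and 22243 bp after hoxb1.L.

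In hoxc the first spacer is long, 146.262 kb between hoxc3.L and hoxc5.L and 145.66 kb between hoxc3.S and hoxc6.S. The L spacer had 10 peaks in each library (3.80% and 4.26% of its bases) and the S spacer 3 and 8 peaks (1.75% and 2.99%). The chromosomes as a whole had 2.98% and 5.48%. The last hoxc spacers, between hoxc12 and hoxc13, had 2 peaks in replicate 1 and 3 in replicate 2 on L, and 1 and 4 on S. On L the shared peaks began 14225 bp and 14198 bp after hoxc12.L, and at 17449 bp in both libraries. On S the shared peak began 19020 bp after hoxc12.S in replicate 1, where it was 1861 bp wide, and 19390 bp in replicate 2.

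Outward from the clusters, the first 10 kb on the high-number side had no peak in either library at any of 8 clusters. Over all chromosomes the median length between neighbouring peaks was 12.8 kb in replicate 1 and 7.36 kb in replicate 2. A stretch of 10 kb without a peak is thus not unusual, and the share of such stretches was not computed. Between 10 and 25 kb on this side 3.14% of bases were in peaks in replicate 1 and 4.41% in replicate 2, and between 25 and 50 kb 4.58% and 6.50%. On the low-number side the first 10 kb held 3.82% and 4.29%, from 5 peaks in replicate 1 and 7 in replicate 2. A peak lay there at 4 of 8 clusters in replicate 1 and 5 of 8 in replicate 2. The shares on this side were 1.78% and 2.87% between 10 and 25 kb, and 2.07% and 5.20% between 25 and 50 kb. Between 50 and 100 kb the shares were 1.70% and 4.86% on the low-number side and 2.91% and 4.19% on the high-number side.

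Over all 4 cluster pairs the share of bases in peaks was 1.19% on L and 0.890% on S in replicate 1, and 1.64% on L and 1.42% on S in replicate 2. The difference, L minus S, was 0.304 and 0.223 percentage points (0.264 ± 0.0571, SD, n = 2). It did not hold in each pair. In hoxa it was -0.00316 in each library, in hoxb -0.556 in replicate 1 and 0.992 in replicate 2, in hoxc 0.685 and 0.228, and in hoxd 0.433 and -0.143. It turned to -0.134 when clusters were taken from their second to their last Hox gene, and to -0.195 with the first part of each peak list. Of 23 homeologous Hox pairs, 6 were farther from a peak on L in both libraries and 7 were farther on S in both. No direction between the subgenomes is therefore given.

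Genes other than the Hox genes of the rule that overlap a cluster numbered 27, of which 20 were protein-coding, 6 were long non-coding RNAs and 1 was a pseudogene. A peak overlapped 3 of the 27 in replicate 1 and 4 in replicate 2. Among the 20 protein-coding genes it was 2 and 3, against 50% and 62.8% of all protein-coding genes. Of the 27 genes, 3 had a peak in both libraries and are named here after their values were seen. These include the protein-coding models LOC108708637 (2L, 97048 bp long) and LOC108709892 (2S, 100826 bp), both reaching into the first hoxc spacer. The other is the long non-coding RNA LOC108702522 (9_10S, 103508 bp), which runs beyond the cluster start. The xhoxc8 gene (2L, 154224208 to 154228695) had no peak, with the nearest at 36816 bp in replicate 1 and 38865 bp in replicate 2.

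In the flanks 14 genes were listed, of which 6 had a peak in replicate 1, 7 in replicate 2 and 5 in both. Those with both were skap1.S, a Src kinase adaptor gene, with 3379 bases in peaks in replicate 1 and 7160 in replicate 2, calcoco2.S, an autophagy receptor gene, with 38 and 1819, and mtx2.L, a mitochondrial import gene next to hoxd in vertebrates, with 1002 and 1539. LOC121399088 had 1768 and 629 bases in peaks, and LOC108700810 had the same number in each library. Genes were counted over their whole length, and skap1.S (152045 bp), calcoco2.S (17142 bp) and mtx2.L (49988 bp) reach beyond the 50 kb flank. The replicate 1 peaks of skap1.S and calcoco2.S lie outside it, as does a part of those of mtx2.L. Counted over whole genes and without matching for length, 0 of 56 Hox genes had a peak in both libraries. The count was 5 of 14 for these genes, and the share was 45.6% for all protein-coding genes.

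Genes that work with or upstream of Hox genes were counted in the same way. The evx genes, homeobox genes next to the clusters, were matched for 2 of 4 symbols. Neither had a peak, with the nearest at 11077 bp in replicate 1 and 6690 bp in replicate 2 for evx1.L, and at 5905 bp and 6318 bp for evx1.S. Among the Caudal and ParaHox genes, relatives of Hox genes in a cluster of their own or alone, 3 of 12 had a peak in both libraries, against 45.6% of all protein-coding genes. Those were pdx1.L, pdx1.S and cdx1.S, named after their values were seen. Peaks covered 0% and 0.166% of Hox gene sequence, against 2.53% and 3.78% of these genes, whose median length was 8258.5 bp.

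By the count of genes with a peak, the other lists were near or above the level of all genes. Of the TALE genes (pbx, meis and pknox), whose proteins bind DNA together with Hox proteins, 9 of 13 matched genes had a peak in both libraries. Of the genes of the retinoic acid pathway, which induces Hox genes in the hindbrain, 10 of 18 did, and of the Polycomb and Trithorax genes, whose products keep Hox genes off or on, 13 of 27 did. TALE and retinoic acid genes are long, with medians of 94192 bp and 34983.5 bp, against 17192 bp for all protein-coding genes. Peaks covered 2.63% (replicate 1) and 4.79% (replicate 2) of TALE gene sequence, and 2.28% and 4.86% for the retinoic acid genes. They covered 2.83% and 3.36% for the Polycomb and Trithorax genes, and 2.58% and 4.79% for all protein-coding genes. Of 8 symbols for microRNAs of the clusters, 0 were matched in the table.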

How the data were processed

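MBD-seq peak lists of 2 capture libraries were used, called by the authors per replicate against the Input of the same replicate. Per the labels and the methods, read pairs were aligned with bowtie to the v10.1 assembly, properly paired reads were kept, and HOMER 4.11 called regions in histone style. Per the file headers, windows of 500 bp needed 4-fold more tags than Input (p 0.0001) and a p of 0.001 against a genome of 2 Gb, with a threshold of 12 tags in replicate 1 and 15 in replicate 2, and the minimum distance between peaks was set to 1000 bp, although gaps below this remain between some listed peaks. The deposited score was 1 for all peaks, so no fold or tag count per peak was used, and positions were the measurement. Input libraries were not analysed here.

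Peak positions were converted to 1-based coordinates. RefSeq genes of the same assembly, without strand, were used, and an overlap of 1 bp counted. Bases in peaks, distances and runs without peaks were computed with Python 3.11.15, numpy 2.4.6 and pandas 2.3.3 and plotted with matplotlib 3.10.9. Interval functions were tested on 200 simulated lists, with 0 mismatches. Promoter sequence and its CpG content were not analysed here. Members and gene lists were chosen with earlier results of these data known. Named genes were those with a peak, the first and last of each cluster, the closest to and farthest from a peak, and flank genes with peaks in both libraries. Alternatives changed the peak lists, flank width, cluster extent, overlap and windows, and left out each replicate. Some of the genes so named are not reported here.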

Additional observations from a re-analysis of the deposited data

How the results depend on the processing

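Pooled over all clusters, the share of bases in peaks was below that of the flanks under each alternative run. At most 1 Hox gene had a peak. With flanks of 25 kb, hoxc L was above its flanks in replicate 1, and hoxd S had no peak in cluster or flanks there. Leaving out 1 replicate gave 1.05% to 1.53% of bases in peaks for clusters, 2.78% to 4.45% for flanks, a difference of -2.92 to -1.74 percentage points, L minus S of 0.223 to 0.304, median distances of 25296.5 to 37995.5 bp, and 0 to 1 Hox genes with a peak in the body in both or either library or at an end in either. With the first part of each list (64919 and 109595 peaks, 49.4% and 49.2%, reading the order of the lists as a rank, which the files do not state), clusters had 0.806%, flanks 2.08%, the difference was -1.27, L minus S turned to -0.195 and the median distance was 42643 bp. With near-equal numbers of peaks (131303 and 134118) L minus S was 0.128. Flanks of 25 kb gave a difference of -1.35 and the bases of Hox genes only -3.53. L minus S was 0.353 with clusters extended by 5 kb and 0.204 with cluster pairs weighted equally. Among alternatives chosen after seeing the data, clusters other than hoxc had 0.497% and L minus S of 0.124, and clusters from the second to the last Hox gene had 0.492% and L minus S of -0.134. The causes were not tested. No paired analysis was possible because the groups sharing replicate numbers are MBD capture and Input, and Input libraries were not analysed here. The libraries differ in tags, in the share of tags in peaks and in tag threshold, and the part of depth in the number of peaks was not tested.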
